A study of Mus musculus with 6 samples.

Results

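Mitochondrial ribosomal protein genes were examined in haematopoietic stem cells recovered after 2 rounds of transplantation, with or without the RhoGAP p190-B. Members were all non-control probes on the array whose gene name begins with Mrpl or Mrps followed by a number. That rule gave 100 probes of the 39429 on the array, which stood for 77 genes, 47 named Mrpl and 30 named Mrps. The RNA came from 6 single-colour arrays, 3 per genotype. 2T-WT denotes LSK-SLAM cells (Lin-, c-Kit+, Sca+, CD150+, CD48-) sorted from the bone marrow of secondary recipients of wild-type cells, and 2T-p190-B-/- denotes the same gate in secondary recipients of cells that lacked p190-B in the germ line. Because p190-B-/- embryos do not survive to adulthood, both grafts started from fetal liver, and both were carried through lethally irradiated hosts together with wild-type competitor marrow. The labelled gate names no marker of donor cells, so whether competitor or host HSC were sorted out before the arrays was not stated. The sorted cells came from 3 separate secondary recipients of each genotype, on 3 occasions. How these recipients and occasions were spread over the arrays was not stated, so p-values measure only the spread between these samples, which may be partly technical.

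Mitochondria keep a ribosome of their own, which translates the few membrane proteins of the respiratory chain that the mitochondrial genome encodes. All of its proteins are nuclear-encoded, made in the cytosol and imported: the large subunit (mostly Mrpl genes) holds the peptidyl transferase centre and the exit tunnel, and the small subunit (mostly Mrps genes) reads the mRNA. Some of these proteins descend from bacterial ribosomal proteins and others were added in the mitochondrial lineage. HSC are known for low protein synthesis and for leaning on glycolysis, which makes the genes that equip mitochondria for translation a natural group to follow after the stress of transplantation.

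Levels below are log2 intensities relative to the 75th percentile of their own array, and a difference is the mean of 2T-p190-B-/- minus the mean of 2T-WT on that scale. A probe entered the test if 3 or more of the 6 arrays measured it well above background, and a gene was read from its brightest tested probe. Levels of different probes are not comparable, so each probe was compared only with itself across arrays. With 3 arrays against 3, an exact permutation test cannot give a two-sided p below 0.1. In bulk RNA, fewer cells carrying a transcript and less transcript per cell cannot be told apart.

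A few probe sequences are shown because they carry the genes on which the results turn and read the spliced message: the 60 bases of 5 of them map across more than 60 bases of mm9, as those of a probe that bridges exons do. Of the 100 member probes, 14 had such a span. The 2 others are the Mrpl32 probe, the largest decrease, and the brightest Mrpl47 probe, shown beside the Mrpl47 probe that bridges exons. All letters are in lower case because no stretch within them was singled out.
Mrps18b probe 2 (chr17:36051313-36051461, - strand, across 149 bases): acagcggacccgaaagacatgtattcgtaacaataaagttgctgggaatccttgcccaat
Mrps35 (chr6:147009999-147019119, + strand, across 9121 bases): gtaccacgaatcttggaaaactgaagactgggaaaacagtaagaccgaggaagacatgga
Mrps31 (chr8:23538340-23539688, + strand, across 1349 bases): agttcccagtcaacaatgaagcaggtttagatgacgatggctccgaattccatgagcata
Mrps11 (chr7:85933622-85935544, + strand, across 1923 bases): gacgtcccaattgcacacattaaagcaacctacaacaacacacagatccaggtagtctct
Mrpl47 probe 2 (chr3:32629104-32630111, - strand, across 1008 bases): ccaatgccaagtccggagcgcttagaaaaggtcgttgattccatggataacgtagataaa
Mrpl47 probe 3 (chr3:32633037-32633096, - strand): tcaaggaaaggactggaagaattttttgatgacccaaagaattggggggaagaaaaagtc
Mrpl32 (chr13:14702894-14702953, - strand): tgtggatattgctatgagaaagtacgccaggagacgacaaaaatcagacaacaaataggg

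The arrays differed in brightness, which sets what could be seen of these genes. The 75th percentile of the signal lay between 53.9 and 227 on the 2T-WT arrays and between 252 and 385 on the 2T-p190-B-/- arrays. Pairs of arrays correlated with r between 0.67 and 0.80 over the probes tested. 2T-WT 3 stood apart by the sums of its cell type markers: its summed linear level of 10 B lymphocyte genes was 1056 against 83.0 to 145 on the other 5 arrays. Its red cell precursor sum of 10 genes was 986 against 214 to 586, and its HSC sum of 15 genes was 157 against 32.1 to 84.0. It was also the highest for T lymphocyte genes (145 against 37.9 to 94.5) and macrophage genes (164 against 33.7 to 72.8), whereas its neutrophil sum of 10.6 lay beside the 10.1 of 2T-WT 2 and its megakaryocyte sum of 16.9 lay below those of 3 other arrays. By the number of marker genes well above background, 2T-WT 3 did not stand apart. It had 9 of 10 B lymphocyte genes, as had 2T-WT 2 and 2T-p190-B-/- 3, and 11 of 15 HSC genes, against 10 or 11 elsewhere. Of 10 red cell precursor genes it had 5, fewer than the 6 or 7 of each other array. Of the 15 HSC genes, 9, Mecom and Fgd5 among them, were well above background on all 6 arrays, while Procr and Slamf1, which encodes the sorting marker CD150, were well above background on none. The single probe for Arhgap5, the gene of p190-B, was well above background on 2T-p190-B-/- 2 only, and so did not check the genotype labels.

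Of the 77 mitochondrial ribosomal protein genes, 54 (70.1%) had a probe above background on some array of each genotype, as had 72% of all genes. A further 10 (13%; 9.77% of all genes) were above it only on 2T-p190-B-/- arrays, 4 (5.19%; 4.06%) only on 2T-WT arrays, and 9 (11.7%; 14.2%) on none. In the 2T-WT samples 40, 54 and 40 of the 77 genes had a probe well above background, or 51.9%, 70.1% and 51.9%. In the 2T-p190-B-/- samples the numbers were 59, 48 and 52, or 76.6%, 62.3% and 67.5%. The groups overlapped, and the share followed that of all named genes on each array, which ran from 53.3% to 71.2% in 2T-WT and from 57.6% to 76.9% in 2T-p190-B-/-. Over all arrays, 32 genes had a probe well above background on each of the 6 arrays.

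**Figure D1:**
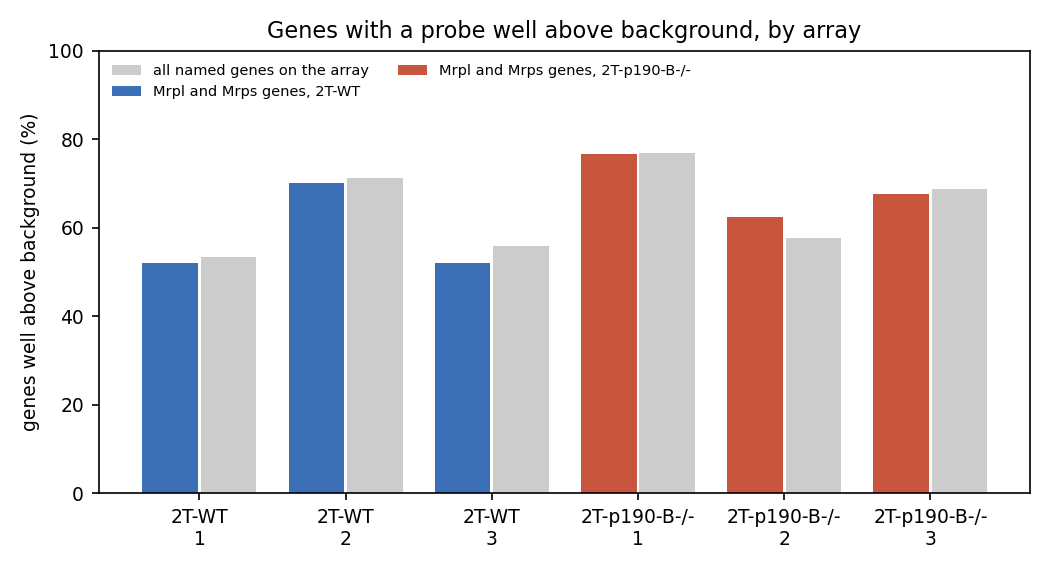
Share of genes with a probe well above background on each of the 6 arrays (percent), for the 77 Mrpl and Mrps genes (blue, 2T-WT; red, 2T-p190-B-/-) and for all named genes (grey); each bar is 1 array. The coloured and grey bars rise and fall together, from 51.9% on 2T-WT 1 and 3 to 76.6% on 2T-p190-B-/- 1.

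The 9 genes that no array measured above background came from both subunits. Mrpl13, Mrpl18, Mrpl19 and Mrpl24 encode large subunit proteins with bacterial counterparts, and Mrpl38, Mrpl44 and Mrpl46 encode large subunit proteins of the mitochondrial lineage. Mrps5, a small subunit protein near the mRNA path, and Mrps22, a mitochondria-specific small subunit protein, completed the set. Each was represented by 1 probe, and for them the arrays give only a bound. In all, 13 of the 100 probes were above background on no array, 26 on 1 or 2 arrays, and 61 probes of 50 genes entered the test. The other 27 genes were not tested.

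No member differed between genotypes after adjustment for all probes tested. With limma, 0 of the 61 probes had an adjusted p under 0.05 (0% of all 25126 probes tested), and 3 had an unadjusted p under 0.05 (6.58% of all probes tested). Read at 1 probe per gene, 2 of the 50 genes had an unadjusted p under 0.05 (6.37% of all genes). The methods' t-test on the same values gave 3 other member probes with an unadjusted p under 0.05, those of Mrpl2, Mrpl54 and the brightest of Mrpl47, and 0 after Benjamini-Hochberg adjustment. None of the 3 probes called in limma passed it.

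Mrpl32 had the largest decrease. It encodes a zinc-binding protein of the large subunit that is cut to its mature form inside mitochondria before it joins the ribosome. Its level was -1.81, 3.91 and 0.16 in 2T-WT and -2.71, -2.71 and -2.34 in 2T-p190-B-/-. All 3 p190-B-deficient samples lay within 0.4 of one another and below the lowest 2T-WT sample, whereas the 2T-WT samples were spread widely, with 2T-WT 2 far above the rest. The difference was -3.34 ± 1.34 (SE, n = 3 per genotype; 10.1-fold lower), with a limma p of 0.0369, an adjusted p of 0.638 and an exact permutation p of 0.1. Without 2T-WT 2 it was -1.76, with a limma p of 0.0861. The probe was well above background on all 6 arrays.

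Mrpl17 had the largest increase. It encodes a large subunit protein with a bacterial counterpart. Its level was -1.22, -2.53 and -2.68 in 2T-WT and -0.23, -0.98 and 3.47 in 2T-p190-B-/-. The genotypes did not overlap, but 2T-p190-B-/- 3 stood far above the other 5 samples, and on 2T-WT 3 the signal was not well above background. The difference was 2.90 ± 1.20 (SE, n = 3 per genotype; 7.44-fold higher; limma p = 0.0416, adjusted p = 0.638, exact permutation p = 0.1). Without 2T-p190-B-/- 3 it was 1.54, with a limma p of 0.121.

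Mrps18b was the third. Mammals have 3 genes, Mrps18a, Mrps18b and Mrps18c, for relatives of 1 bacterial protein, and their products occupy different places: that of Mrps18a sits in the large subunit and those of Mrps18b and Mrps18c in the small subunit. Probe 2 of Mrps18b, the one printed above, read -0.90, -3.59 and 0.01 in 2T-WT and -4.18, -4.75 and -4.06 in 2T-p190-B-/-. The signal was well above background in the 3 2T-WT samples and in 2T-p190-B-/- 1, but not in 2T-p190-B-/- 2 and 3. The difference was -2.84 ± 1.00 (SE, n = 3 per genotype; 7.14-fold lower; limma p = 0.0214, adjusted p = 0.638, exact permutation p = 0.1).

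The other Mrps18b probe, which was the brighter, gave a smaller value of the same sign. It read 0.77, 0.05 and 0.45 in 2T-WT and -1.35, 0.33 and -0.14 in 2T-p190-B-/-, so that the genotypes overlapped, and the difference was -0.81 ± 0.74 (SE; adjusted p = 0.716). Raising all dim values to a floor shared by the 6 arrays took the difference of probe 2 from -2.84 to -1.21. For the relatives of Mrps18b, Mrps18a differed by -0.72 ± 0.79 (SE; -0.14 without 2T-WT 3), with levels of 0.63, 0.85 and 2.49 in 2T-WT and 0.04, 0.51 and 1.26 in 2T-p190-B-/-. Mrps18c was well above background only on 2T-p190-B-/- 1 and was not tested.

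The genotypes did not overlap for 14 of the 50 genes tested, 5 higher and 9 lower in 2T-p190-B-/-. The same held for 16.5% of all genes tested, 4.43% higher and 12.1% lower, against 28% of the members. In the other fits of all 6 arrays the share ran from 22% to 31.25% of the members and from 13.35% to 23.05% of all genes. After normexp background correction it was 22% of the members against 23.05% of all genes. Of the 14 genes, 10 were above background on all 6 arrays. The adjusted p of the 14 genes in limma ran from 0.638 to 0.671, and each had an exact permutation p of 0.1, the smallest that 3 arrays per genotype allow. The separation was often narrow: the gap between the nearest samples of the genotypes was below 0.1 for 5 genes and below 0.21, the median SD of repeated spots of a probe on 1 array, for 8.

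**Figure D2:**
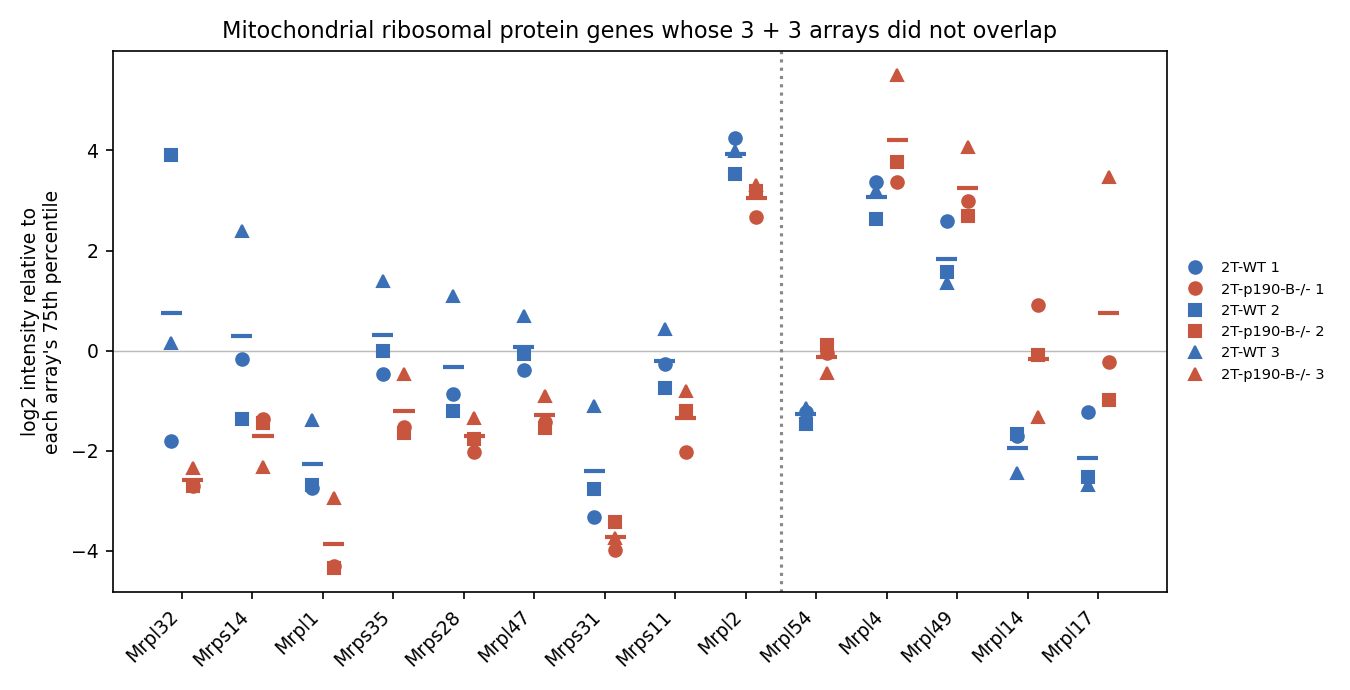
Levels of the 14 genes whose genotypes did not overlap, as log2 intensity relative to each array's 75th percentile (vertical axis), for each 2T-WT (blue) and 2T-p190-B-/- (red) sample, with circles, squares and triangles for samples 1, 2 and 3 and a bar for the mean of 3. Genes are ordered by the difference, from Mrpl32 at -3.34 to Mrpl17 at 2.90, and the dotted line parts the 9 lower genes from the 5 higher ones; 2T-WT 3 is the highest sample of 7 of the 9.

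Among the lower genes, the large subunit was represented by Mrpl32, Mrpl1, Mrpl47 and Mrpl2. Mrpl1, a component of the mobile stalk beside the exit site for tRNA, read -2.75, -2.68 and -1.38 in 2T-WT and -4.31, -4.34 and -2.94 in 2T-p190-B-/-. Its difference was -1.59 ± 0.77 (SE), and it was well above background on 4 of the 6 arrays. With the floor shared by the 6 arrays its difference dropped to -0.29. Mrpl47, which lies by the mouth of the exit tunnel, read -0.39, -0.07 and 0.69 in 2T-WT and -1.42, -1.55 and -0.90 in 2T-p190-B-/- at its brightest probe. The difference was -1.37 ± 0.68 (SE), with a gap of 0.52 between the nearest samples. Mrpl2, which lies beside the peptidyl transferase centre, read 4.26, 3.53 and 3.98 in 2T-WT and 2.67, 3.19 and 3.30 in 2T-p190-B-/-, a difference of -0.87 ± 0.66 (SE).

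The small subunit contributed Mrps14, Mrps35, Mrps28, Mrps31 and Mrps11, each lower in 2T-p190-B-/-. Mrps14, a protein of the head of the subunit, read -0.16, -1.36 and 2.40 in 2T-WT and -1.37, -1.44 and -2.32 in 2T-p190-B-/-, a difference of -2.00 ± 1.02 (SE). The nearest samples of the genotypes were 0.0063 apart, and without 2T-WT 3 the difference was -0.95. The other Mrps14 probe was above background on no array. Mrps35, a mitochondria-specific protein, read -0.46, -0.01 and 1.39 in 2T-WT and -1.53, -1.64 and -0.47 in 2T-p190-B-/-, a difference of -1.52 ± 0.79 (SE) with a gap of 0.0061. Its probe was spotted 10 times on each array, and the SD among those spots had a median of 0.21 over the 6 arrays (0.19 to 0.61). The SD was 0.97 between the 2T-WT samples and 0.65 between the 2T-p190-B-/- samples. By the median, the spread for Mrps35 thus lay more between samples than between spots.

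The remaining small subunit genes were alike in form. Mrps28 read -0.87, -1.21 and 1.09 in 2T-WT and -2.02, -1.76 and -1.34 in 2T-p190-B-/- (difference -1.37 ± 0.82). Mrps31, which is mitochondria-specific, read -3.33, -2.77 and -1.11 against -3.99, -3.43 and -3.75 (difference -1.32 ± 0.79), and it was not well above background on 3 of the 6 arrays. With the shared floor its difference was -0.38. Mrps11, a protein of the platform that holds the mRNA exit, read -0.27, -0.75 and 0.43 against -2.03, -1.21 and -0.80 (difference -1.15 ± 0.72). In all 5 of these small subunit genes, and in Mrpl1 and Mrpl47, the highest of the 6 samples was 2T-WT 3, the array with the high B and T lymphocyte, macrophage, red cell and HSC sums. 2T-WT 3 was also the dimmest array, with a 75th percentile of 53.9. The parts of whatever raised those sums and of brightness in the result were not tested. Without that sample the 5 differences ran from -0.98 to -0.66, and those of Mrpl1 and Mrpl47 were -1.15 and -1.06.

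All 5 genes that were higher without overlap belonged to the large subunit. Mrpl14, which lies on the face that meets the small subunit, read -1.71, -1.66 and -2.45 in 2T-WT and 0.91, -0.10 and -1.32 in 2T-p190-B-/-. Its difference was 1.77 ± 0.80 (SE), and 0.57 after normexp background correction. Mrpl49, a mitochondria-specific protein, read 2.59, 1.58 and 1.35 in 2T-WT and 2.98, 2.70 and 4.08 in 2T-p190-B-/-, a difference of 1.41 ± 0.74 (SE). The other Mrpl49 probe was above background on no array. Mrpl54, also mitochondria-specific, showed the widest gap of the 14 genes, 0.69: the 2T-WT samples lay at -1.22, -1.46 and -1.14 and the 2T-p190-B-/- samples at -0.04, 0.11 and -0.45 (difference 1.15 ± 0.64). Its difference dropped to 0.22 after normexp background correction.

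Mrpl4, which lines the exit tunnel, was the fifth. It read 3.36, 2.64 and 3.19 in 2T-WT and 3.37, 3.77 and 5.50 in 2T-p190-B-/-, a difference of 1.15 ± 0.79 (SE), and the nearest samples of the genotypes were 0.013 apart. Without 2T-p190-B-/- 3 the difference was 0.51. Its other probe gave the opposite sign, as described below.

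Over all 50 genes tested, 25 were higher and 25 lower in 2T-p190-B-/-, with a median difference of -0.10 (quartiles -0.81 and 0.61). Over the 21713 genes tested on the array the median was -0.35 and 61.4% were lower. 2T-WT 1 and 2T-p190-B-/- 3 were each alone on a slide. A fixed slide block therefore compares only the other arrays, which shared a slide. With slide as a fixed block 64% of the members were lower, with a median of -0.72, and the distance of that median from the median of all genes went from 0.25 to -0.23. Of the members, 8 were higher and 11 lower by 2-fold or more (15.3% and 28.1% of all genes). The median level of the 50 genes was -1.28, -0.93 and -0.39 in the 2T-WT samples and -0.67, -0.98 and -0.64 in the 2T-p190-B-/- samples, so the genotypes overlapped. Within genotypes the SD of a member at its brightest probe had a median of 0.89, against 1.06 over all tested probes, dimmer probes of a gene included.

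The subunits lay on different sides of the array's median. Of the 30 large subunit genes tested (49 on the array, Mrps18a included), 18 were higher and 12 lower, with a median difference of 0.08. Of the 19 small subunit genes tested (26 on the array), 6 were higher and 13 lower, with a median of -0.61. The large subunit genes of the mitochondrial lineage had a median of 0.61 (10 tested, 7 higher) and those with a bacterial counterpart 0.01 (20 tested, 11 higher). In the small subunit the corresponding medians were -0.71 (8 tested, 2 higher) and -0.48 (11 tested, 4 higher). These are descriptions of lists and carry no test.

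**Figure D3:**
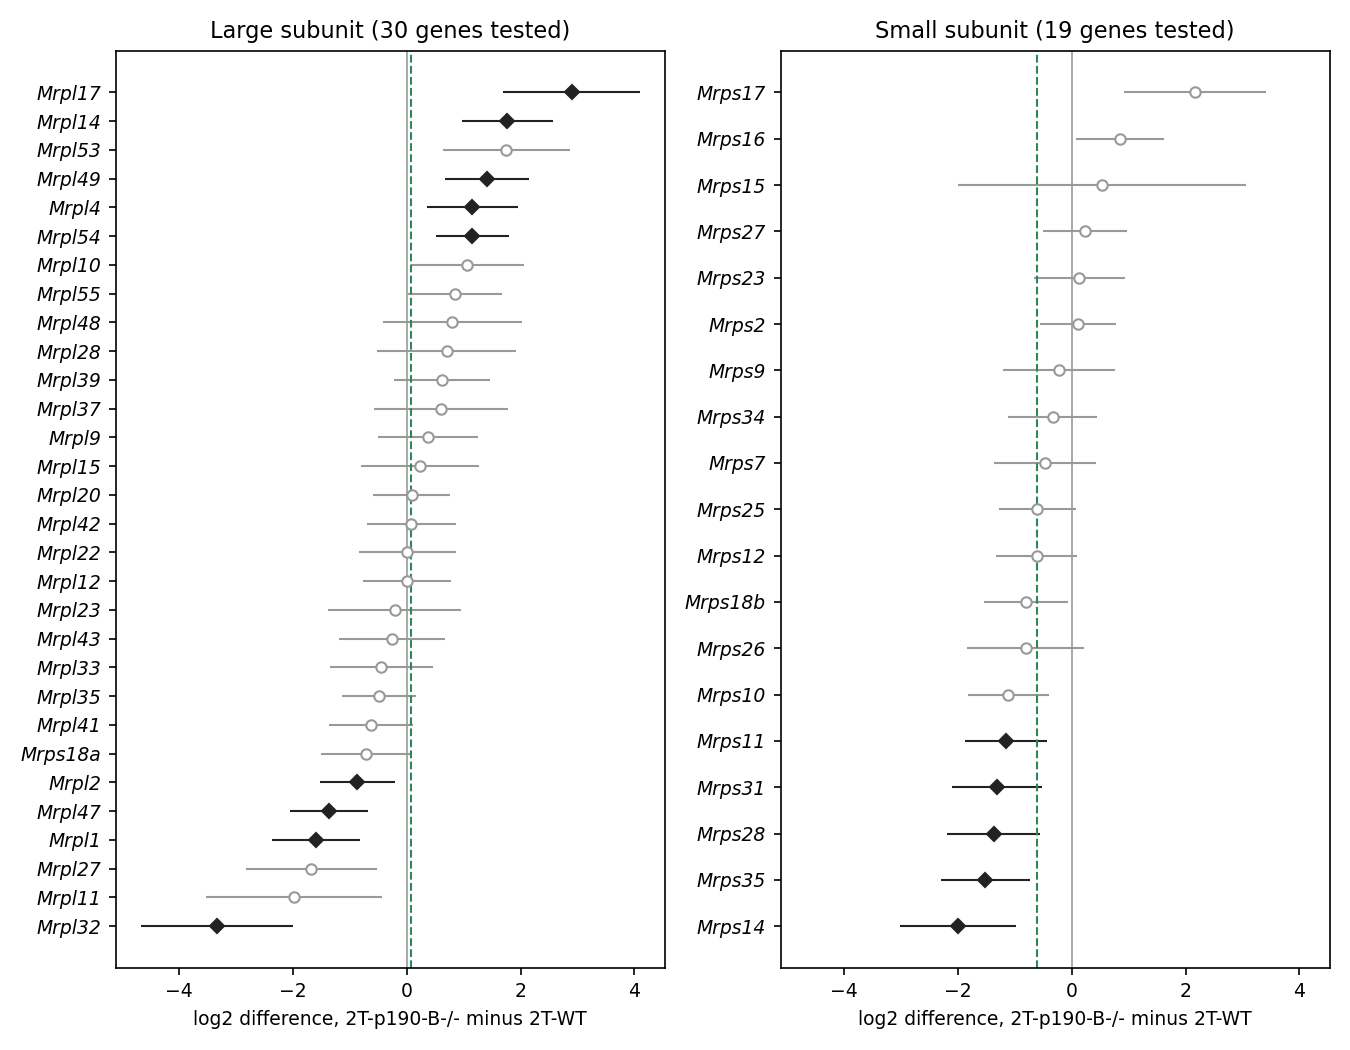
Difference between genotypes (log2, 2T-p190-B-/- minus 2T-WT; horizontal axis) for each tested gene of the large subunit (left, 30 genes) and the small subunit (right, 19 genes), with the standard error from limma. Filled diamonds mark genes whose genotypes did not overlap and the dashed line is the median of the panel, 0.08 on the left and -0.61 on the right; the filled diamonds fall on both sides of 0 on the left and below 0 on the right.

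The medians of single arrays did not part the genotypes for either subunit. For the large subunit genes the median level was -1.39, -1.35 and -1.01 in 2T-WT and -0.56, -1.46 and -1.07 in 2T-p190-B-/-. For the small subunit genes it was -0.27, 0.05 and 0.94 in 2T-WT and -1.35, -0.03 and -0.14 in 2T-p190-B-/-, with 2T-WT 3 the highest and 2T-p190-B-/- 1 the lowest. Without 2T-WT 3 the median difference was 0.55 for the large subunit genes and -0.39 for the small subunit genes. After normexp background correction the medians were -0.42 for both subunits, and the large subunit median was -0.33 when only probes above background on all 6 arrays were kept.

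**Figure D4:**
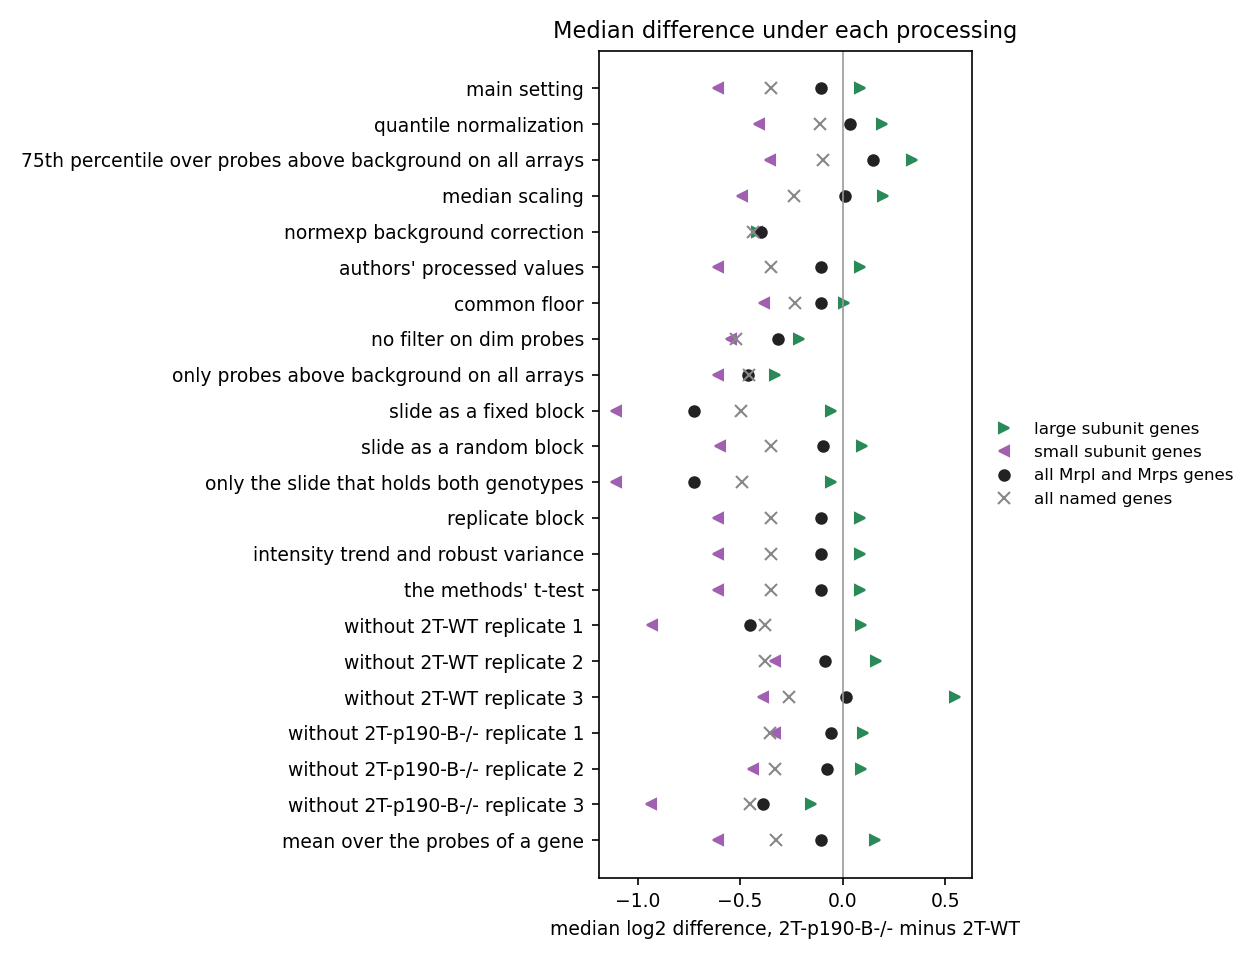
Median difference between genotypes (log2, horizontal axis) of the large subunit genes, the small subunit genes, all Mrpl and Mrps genes and all named genes under the main setting and each alternative processing (rows). The small subunit lies left of 0 in each row, from -1.11 to -0.33, whereas the large subunit lies on either side of 0, from -0.42 to 0.55.

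For 3 further genes the genotypes overlapped. Mrps12, a protein of the decoding centre, differed by -0.62 ± 0.71 (SE). Mrpl11, at the base of the factor-binding stalk, differed by -1.98 ± 1.54, but this rested on 2T-WT 3, which read 4.70 while the other 5 samples lay between -1.72 and -0.93. Mrps15 varied most, with -4.77, 2.76 and -3.06 in 2T-WT and -5.85, -0.93 and 3.30 in 2T-p190-B-/-, and its difference of 0.53 had a standard error of 2.53. These genes were chosen after their values were seen.

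The smallest differences among the members were those of Mrpl12, Mrpl22, Mrpl42 and Mrpl20. Mrpl12, the protein of the stalk that recruits translation factors, differed by 0.0028 ± 0.77 (SE), with -1.38, 0.39 and -0.43 in 2T-WT and -0.54, -1.07 and 0.20 in 2T-p190-B-/-. Mrpl22, a further lining protein of the exit tunnel, differed by 0.01 ± 0.85 at its brightest probe, with 1.22, -0.48 and -0.93 in 2T-WT and -0.71, -0.31 and 0.87 in 2T-p190-B-/-. Mrpl42 differed by 0.08 ± 0.79 and Mrpl20 by 0.08 ± 0.68. With standard errors of this size the arrays could not exclude changes of 2-fold in either direction for these 4 genes.

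For 22 genes the array carried more than 1 probe, which shows how far a value depended on the probe. Probes were paired within 10 genes in which both were tested, giving 12 pairs, and 6 pairs agreed in sign while 6, in 5 genes, did not. Mrpl47 had 3 probes: probe 1 differed by 1.64 ± 1.09, probe 2 by -1.69 ± 0.91 and probe 3, the brightest, by -1.37 ± 0.68 (SE; adjusted p from 0.638 to 0.64 in limma). Probe 1 was high in 2T-p190-B-/- 1 and 2 (-0.39 and -0.99) and low in 2T-p190-B-/- 3 (-4.08), with 2T-WT between -4.51 and -2.68. Probes 1 and 2 were each above background on 3 of the 6 arrays.

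Mrpl10, which anchors the factor-binding stalk, differed by -0.56 ± 0.83 at probe 1 and by 1.06 ± 0.99 at probe 2. Mrpl4 differed by -0.23 ± 0.86 at probe 1 and by 1.15 at the brighter probe 2. For both genes each probe was above background on all 6 arrays. Mrps7, a protein of the small subunit head, differed by -0.48 ± 0.90 at probe 1 and 0.05 ± 1.14 at probe 2. Mrps36 differed by -0.23 ± 1.40 at probe 1 and 0.60 ± 1.19 at probe 2. It is now known as a component of the oxoglutarate dehydrogenase complex and was assigned to neither subunit here. A pseudogene copy, Mrps36-ps1, had a probe of its own, and how far the Mrps36 probes also read that copy was not tested.

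**Figure D5:**
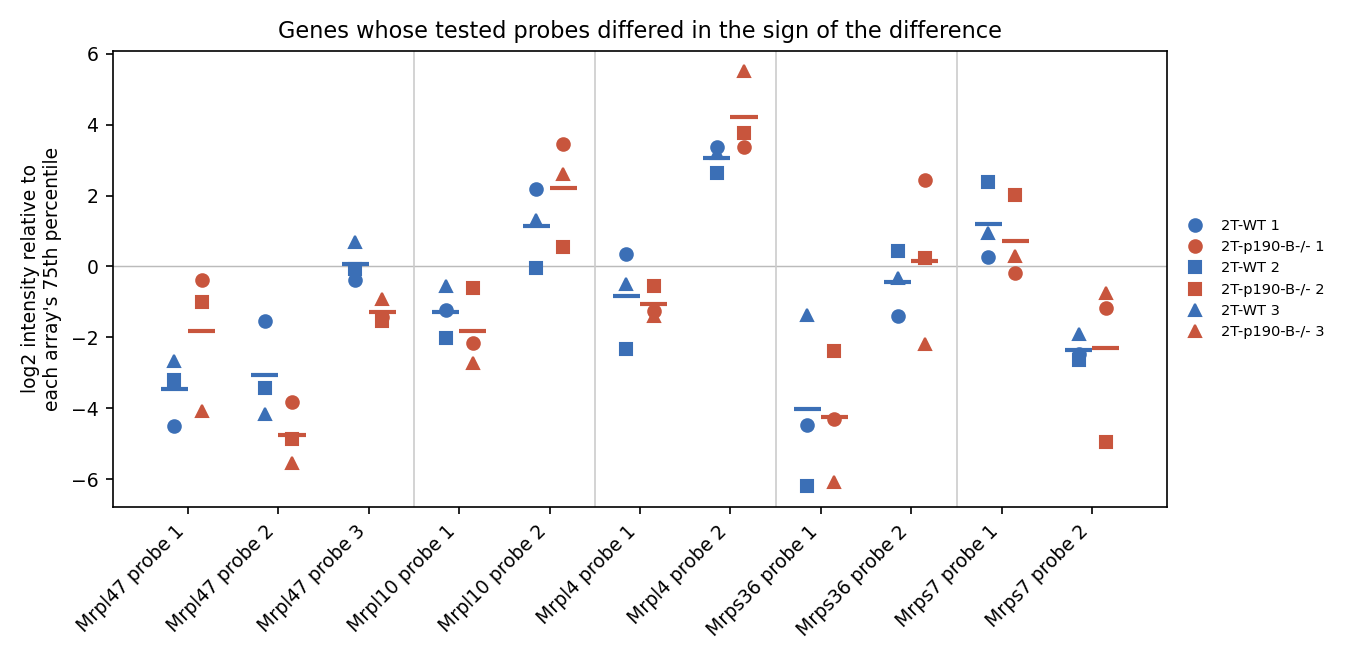
Levels of the tested probes of the 5 genes whose probes differed in the sign of the difference, as log2 intensity relative to each array's 75th percentile (vertical axis), for each 2T-WT (blue) and 2T-p190-B-/- (red) sample, with circles, squares and triangles for samples 1, 2 and 3 and a bar for the mean of 3. Probe 1 of Mrpl47 has its red bar above the blue one, and probes 2 and 3 have it below.

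Some members were seen on a single array. The pair of Mrpl40 probes, which share 52 of their 60 bases, read 0.62 and 1.03 in 2T-p190-B-/- 2 and were not well above background on any other array, so the signal of that sample was found by both. Mrps30 (0.60), Mrpl15 probe 2 (2.06) and Mrpl41 probe 2 (-1.30) were likewise above background in 2T-p190-B-/- 2 only. In 2T-WT 2 this was so for Mrpl21, Mrpl34, Mrpl36 and Mrps24, and in 2T-p190-B-/- 1 for Mrpl51, Mrps18c and Mrps21. Mrpl50 probe 2 was above background in 2T-WT 3 only, at 2.78, although the other Mrpl50 probe was above background in 2T-p190-B-/- 1 and 3 and not in 2T-WT 3.

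Of the 10 genes above background on 2T-p190-B-/- arrays alone, Mrpl16, Mrpl45, Mrpl52, Mrps17 and Mrps36-ps1 were so on 2 or 3 of them (6.49% of the members and 3.14% of all genes). No member showed the converse (0.706% of all genes). The 2T-p190-B-/- arrays were also the brighter ones, and the part of brightness in this was not tested. Mrps17, a small subunit protein with a bacterial counterpart, was above background at probe 1 in each 2T-p190-B-/- sample, at -4.57, -0.03 and -3.41, and in no 2T-WT sample, where it read -3.83, -6.22 and -4.44. The genotypes overlapped, since 2T-p190-B-/- 1 lay below 2T-WT 1 and 3. The bound on the means was 1.22-fold higher in 2T-p190-B-/-, where 2T-p190-B-/- 2 was by far the highest sample. The probe passed the filter through the 2T-p190-B-/- arrays alone. The bound sets the mean of the brighter group against a mean that takes, on each array of the dimmer group, the higher of the lowest signal above background and the probe's own. The second Mrps17 probe was above background on none.

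Mrps33 at probe 1 was above background on 2T-p190-B-/- 1 and 2 (2.40 and -1.68) but not on 2T-p190-B-/- 3 (-3.76). The same comparison of means gave 3.84-fold higher, but it used the signal of 2T-p190-B-/- 3 as read and so is not a lower limit. Mrps33 was not among the 10 genes, because its other probe read 2.24 on 2T-p190-B-/- 1 and 0.04 on 2T-WT 1, and was above background on those arrays alone. Of the 10, Mrpl45, a large subunit protein that ties the ribosome to the inner membrane, was above background on 2T-p190-B-/- 1 and 2 (-3.26 and 3.49). It read -4.90 on 2T-p190-B-/- 3 and -4.48, -5.00 and -2.66 in 2T-WT. The comparison gave 2.63-fold higher, again with 2T-p190-B-/- 3 used as read, but only 2T-p190-B-/- 2 lay above all 2T-WT samples. In the other direction, it gave 2.40-fold lower for Mrpl50 probe 2, 1.40-fold for Mrpl34 and 1.09-fold for Mrpl36. Each was above background on a single 2T-WT array, and the other 2T-WT arrays were used as read. None of these probes was tested, so these values carry no p-value, and they are not lower limits.

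The genes that serve the mitochondrial ribosome were read from lists of their own. Of 15 tested genes for ribosome assembly and rRNA modification (24 on the array), 11 were higher and 4 lower, with a median difference of 0.36. The genotypes did not overlap for 3 of them, Trub2, Noa1 and Rbfa (20%, against 16.5% of all genes). Trub2, a pseudouridine synthase that modifies mitochondrial RNA, read -0.76, -0.86 and -0.95 in 2T-WT and 0.76, 0.92 and 0.20 in 2T-p190-B-/- (difference 1.48 ± 0.65, adjusted p = 0.638). Noa1, a GTPase of ribosome assembly, was higher without overlap (1.39 ± 0.93). It read -1.33, -1.56 and -1.90 in 2T-WT and -1.12, -1.19 and 1.70 in 2T-p190-B-/-, so the difference came mostly from 2T-p190-B-/- 3. Rbfa, a small subunit assembly factor, was lower without overlap (-1.48 ± 0.70) but above background on 3 of the 6 arrays only.

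A list of translation factors and related genes, Letm1, Oxa1l, Lrpprc and Rmnd1 among the latter, had 17 genes on the array. Of the 13 tested, 1 was higher and 12 were lower (92.3%, against 61.4% of all genes), with a median difference of -0.71. The probes of Tufm, Rmnd1, Lrpprc, Guf1 and Gfm1 were above background on 3 of the 6 arrays only. The genotypes did not overlap for 1 of the 13 (7.69%, against 16.5% of all genes). This was Mrrf, the ribosome recycling factor, at -2.06, -2.57 and -0.94 in 2T-WT and -3.15, -4.26 and -2.66 in 2T-p190-B-/- (difference -1.50 ± 0.79). The 1 higher gene of the list was Mtif3 at 0.54 ± 1.45. Of 10 tested regulators of mitochondrial gene expression (14 on the array), 3 were higher and 7 lower, with a median of -0.48. The genotypes did not overlap for 1 of the 10 (10%), Ppargc1a, which was lower and above background on 3 of the 6 arrays only. Tfam, which packages and transcribes mitochondrial DNA, differed by 0.19 ± 0.79, and Nrf1, a transcription factor for nuclear-encoded mitochondrial genes, by -0.08 ± 1.25.

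Mitochondrial ribosomal proteins under other gene names numbered 6, all tested, 3 higher and 3 lower with a median of 0.36. The genotypes did not overlap for 1 of the 6 (16.7%, against 16.5% of all genes). This was Aurkaip1, which was lower, with 6.10, 4.98 and 4.50 in 2T-WT and 3.84, 3.81 and 4.02 in 2T-p190-B-/- (difference -1.30 ± 0.71). In the cytosolic ribosome, 74 of 75 protein genes were tested, with a median difference of -0.20 and 10 genes (13.5%) without overlap. Nuclear-encoded subunits of oxidative phosphorylation, among which the products of mitochondrial translation are assembled, had a median of -0.20 over 54 tested genes of 85, with 8 (14.8%) without overlap. No gene in any of them passed an adjusted p of 0.05 in limma.

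The promoters of the members were searched for motifs of factors known to serve nuclear mitochondrial genes, in RefSeq windows of 300 bases that run from 250 bases before to 50 bases after the start site (GRCm38.p6). A window was found for 67 of the 77 genes. The NRF1 core GCGCANGCG, on either strand, was in the first listed window of 22.4% of these member genes and of 8.83% of protein-coding genes. The ETS motif CCGGAAGT was in 16.4% against 5.29%, the YY1 motif AAGATGGCG in 11.9% against 1.94%, and the E-box CACGTG in 7.46% against 7.9%. Over all listed windows, several of which can belong to 1 gene, the E-box was in 9.59% for the members and 7.15% for the whole table. Mrpl32 and Mrpl17, the members with the largest decrease and the largest increase, both hold the NRF1 core, as shown here in capitals within the bases before their start sites.
Mrpl32 (chr13:14613096-14613144, - strand): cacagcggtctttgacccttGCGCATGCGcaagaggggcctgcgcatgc
Mrpl17 (chr7:105811108-105811156, - strand): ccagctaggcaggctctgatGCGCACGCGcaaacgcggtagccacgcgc
Of the 11 tested genes with the NRF1 core 4 were lower, and of the 33 without it 18 were lower, with median differences of 0.01 and -0.25. Of the 5 tested genes with the ETS motif 4 were lower, against 18 of the 39 without it. A match is a run of letters in the window and not a site at which binding was measured.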

How the data were processed

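RNA of sorted LSK-SLAM was amplified, labelled with Cy3 and hybridised to 1-colour Agilent whole mouse arrays. The authors deposited Agilent Feature Extraction 10.5.1.1 output per array, in which the processed signal is a linear, background-corrected intensity with probe coordinates on mm9. They also deposited a value table, which holds the ratio of that intensity to the median of its array and which served as an alternative. Outlier and control spots were dropped, spots of a probe averaged, and log2 values set relative to the 75th percentile of each array. Probes that 3 or more of the 6 arrays measured above background, with at least 2 values per genotype, were fitted with limma 3.58.1 in R 4.3.3 (lmFit, eBayes), without covariates, and Benjamini-Hochberg adjusted over all 25126 probes. The code was tested on simulated data. No p adjusted over the members alone is given. The number of arrays limits the precision.

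Genes were named by rule: a probe with unadjusted p under 0.05, the largest differences without overlap (up to 8 each way), probes of opposite sign, the 4 smallest differences, genes above background on no array, and the Mrps18 relatives. Mrpl2, the ninth lower gene, was added after its values were seen, as were genes seen on few arrays and those singled out from the other lists. Members and lists were chosen with earlier results of these data known. Subunit roles were assigned from general knowledge. Same-numbered samples did not deviate together (r = 0.009, 0.016 and 0.086), so the numbers were not used as pairs. Alternatives changed scaling, background correction, the filter on dim probes, slide and replicate blocks, variance model, probe choice and samples; the floor shared by all arrays, the highest of their lowest above-background levels, was chosen after seeing the data.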

Additional observations from a re-analysis of the deposited data

How the results depend on the processing

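Of the 21 alternatives, none of those with p-values gave an adjusted p under 0.05 for a member. The change of probe choice gave differences and overlap only, without p-values. Of 435 values of 22 named genes, 413 kept their sign. The number of member probes with an unadjusted p under 0.05, 3 in the main setting, was 6 after quantile normalization (9.84% of members, 7.18% of all probes), 8 after normexp (13.1%, 14.4%), 5 with a common floor (8.2%, 7.61%), 5 with no filter on dim probes (5%, 5.63%), 1 when only probes above background on all arrays were kept (2.7%, 7.24%), 5 with slide as a fixed block (8.2%, 7.41%) and 5 within the slide that held both genotypes (8.2%, 7.39%). With the replicate block it was 5 (8.2%, 7.45%): Mrpl17 lost its call and Mrpl14, Mrpl47 and Mrpl53 gained one; the shared numbers do not pair the samples. Of the 3 probes, none was called with the common floor, and only Mrpl32 under both slide settings. Within the slide that held both genotypes, 2 arrays of each, 27 genes (54%) did not overlap in place of 14, against 46.4% of all genes. The fixed slide block takes its differences from the same arrays, so the slide settings are not separate checks. The percentage of lower genes, 50 in the main setting, was 72 after normexp, 62.5 for probes above background on all arrays and 64 with slide as a fixed block or within that slide. The median difference of -0.10 became -0.46 for probes above background on all arrays and -0.72 under both slide settings, and its distance from all genes went from 0.25 to -0.23 in both. The large subunit median of 0.08 became -0.42 after normexp and -0.33 for probes above background on all arrays.

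Signs turned for genes with differences near 0: Mrpl12, Mrpl42 and Mrpl20 after normexp (-0.38, -0.70 and -0.54) and under both slide settings (-0.79, -0.64 and -0.015), and Mrpl42 with a common floor (-0.044). Leaving out 1 sample at a time gave 1 to 4 probes with an unadjusted limma p under 0.05 (1 without 2T-WT 3 or 2T-p190-B-/- 2). These were 1.64% to 6.56% of the members, against 4.26% to 9.74% of all probes. From 14 to 21 genes did not overlap, or 28% to 42% of the members against 23.38% to 33.15% of all genes. The 21 genes (42%) came without 2T-p190-B-/- 3, where the share of all genes was 33.15%. Of the members, 48 to 62% were lower, with medians of -0.45 to 0.01 and distances from all genes of -0.070 to 0.30. Medians were -0.15 to 0.55 for the large and -0.93 to -0.33 for the small subunit. In these fits Mrpl12 ranged from -0.45 to 0.43, Mrpl22 from -0.45 to 0.65, Mrpl42 from -0.29 to 0.59, Mrpl20 from -0.18 to 0.34, Mrps7 from -1.13 to 0.11 and Mrps36 from -0.54 to 1.78. The causes were not tested. Signal over background limits the 27 genes not tested and the dim probes.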
